A study of Homo sapiens with 12 samples.

Results

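HL-60 cells are a human line established from an acute myeloid leukemia, and they keep features of promyelocytes, the early granulocyte precursors. ML-792 blocks the SUMO-activating enzyme, the heterodimer of SAE1 and UBA2 that starts the attachment of SUMO proteins to their targets. The ML-792 effect described here was taken across both drug backgrounds of the study: the 6 libraries of cells given ML-792 (0.5 µM for 3 h, alone or with 1 µM daunorubicin, DNR) were set against the 6 libraries of cells that were not (vehicle, dimethyl sulfoxide (DMSO), or DNR alone), with DNR and the replicate number as further terms of the fit. All 12 libraries of the series entered, 3 replicates in each of the groups DMSO, DNR, ML-792 and ML-792+DNR, which per the study's methods came from independent experiments. All groups share the same cell line, culture and 3 h of treatment, and the line is 1 patient-derived culture, so that the replicates repeat the experiment and not the donor. DNR intercalates into DNA and traps topoisomerase II.

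SUMO is coupled to many proteins bound to chromatin, among them transcription factors, co-repressors and the KRAB zinc finger machinery that silences repeats and gene clusters. It is mostly known for restraining transcription, although many of its targets are activators. Transcripts that turn over quickly, such as those of MYC, of microRNA precursors and of feedback inhibitors, follow a change in transcription within hours, which a 3 h treatment can record.

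Reads assigned to genes ranged from 28647951 to 46451654 per library. The tables list 42157 genes. A read was found for 24018 of them, and 13696 were abundant enough to be tested. The myeloid label was checked on marker genes: MPO, the myeloperoxidase of primary granules, stood at 10090 to 12204 CPM (counts divided by the TMM-scaled total of the library and brought to a common library size) in the 12 libraries, SPI1 at 82.4 to 198 CPM and CD33 at 58.3 to 94.6 CPM, while ELANE, the neutrophil elastase, was low at 0.324 to 4.03 CPM. Of the markers of lymphocytes, of erythroid cells and megakaryocytes, and of stromal and epithelial cells, 6 of 19, 2 of 19 and 4 of 17 were abundant enough to be tested, and none of these 12 passed in either direction. Mitochondrially encoded transcripts took 4.30% to 6.78% of the reads in the 4 libraries of replicate 1 and 2.67% to 3.71% in the other 8, and did not separate the groups: libraries with ML-792 differed from their matched library by 0.299 percentage points ± 0.638 (SD, 6 pairs, exact two-sided permutation test p = 0.3125). The transcripts of the drug target itself were level, with log2 fold changes of 0.02 ± 0.03 for SAE1 (SE, adjusted p = 0.72) and 0.02 ± 0.04 for UBA2 (adjusted p = 0.776). These levels check no label, because ML-792 acts on the enzyme and not on its transcripts. In bulk RNA, fewer cells of a type and less RNA per cell cannot be told apart.

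ML-792 moved a small set of genes by a large amount and a larger set by a little. A gene was called where its adjusted p (edgeR quasi-likelihood test, Benjamini-Hochberg adjustment over 13696 genes) was below 0.05, and changes are given as log2 fold changes with their standard error (SE). With a fold of 2 or more required as well, 25 genes were higher and 14 lower with ML-792, or 0.183% and 0.102% of those tested. Many were scarce: 10 of the 25 and 3 of the 14 reached a mean of 5 CPM in the highest group. The estimate had the same sign in both backgrounds for all 25 and for 9 of the 14. The exceptions BCL3, CRIP2, TNFAIP6, GCNT4 and CCL4 had 0 to 4 reads per library without DNR, so their sign there was not read. Among the risers, RUBCNL had 0 to 6 reads per library with DNR, and its sign there (log2 0.22 ± 0.99) was not read either. At any fold 318 were higher (2.32%) and 366 lower (2.67%), together 4.99% of those tested, with a median fold of 1.28 among the risers and 1.21 among the fallers. Of the 318 risers, 49 rose by 1.5- to 2-fold and 25 by more. In each of the 6 pairs of libraries that share a replicate number and a DNR state, 297 of the risers were higher and 332 of the fallers lower, which the fit that called them had used. The median log2 fold change of all tested genes was 0.00. Without the replicate term the calls at any fold dropped to 106 higher and 93 lower, and without replicate 3 to 28 and 8, while without replicate 1 they were 300 and 284. The number of small changes thus depended on the replicate term and on which replicates entered.

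MIR17HG showed the largest rise of all genes called. It is the primary transcript of the miR-17-92 cluster (chromosome 13, 91999940 to 92049846, plus strand, lncRNA, GRCh37), whose microRNAs restrain the cell cycle inhibitors and pro-apoptotic genes that they pair with. In DMSO it stood at 35.5, 44.0 and 47.4 CPM in replicates 1, 2 and 3, and with ML-792 at 453, 286 and 338 CPM. In DNR it stood at 25.5, 33.3 and 30.0 CPM, and in ML-792+DNR at 179, 221 and 257 CPM. The libraries with and without ML-792 did not overlap within or across backgrounds: the lowest level with ML-792 was above the highest without. The log2 fold change was 2.99 ± 0.13 (SE, adjusted p = 1.43e-07), or 7.95-fold, with 3.10 ± 0.19 without DNR and 2.88 ± 0.19 with DNR. It was called under each of 24 alternative settings, between 2.83 and 3.13.

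The 6 microRNA genes that lie within MIR17HG on its strand give the mature arms below, printed to show which seeds this host transcript carries (RefSeq, GRCh38.p14, chromosome 13, plus strand; capitals mark the seed, bases 2 to 8). The arms shown are those by which the cluster is usually known.
hsa-miR-17-5p: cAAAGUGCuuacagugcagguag
hsa-miR-20a-5p: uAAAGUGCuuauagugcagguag
hsa-miR-18a-5p: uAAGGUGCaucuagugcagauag
hsa-miR-19a-3p: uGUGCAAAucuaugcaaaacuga
hsa-miR-19b-3p: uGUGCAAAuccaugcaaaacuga
hsa-miR-92a-3p: uAUUGCACuugucccggccugu
Thus miR-17-5p shares its seed with miR-20a-5p, miR-19a-3p shares its seed with miR-19b-3p, and the other two stand alone. Mature microRNAs are not polyadenylated and were not measured in these libraries, so the values are those of the host RNA.

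Of the 15 tested microRNA host transcripts 6 rose and 1 fell, 40.0% and 6.67% against 2.32% and 2.67% of all tested genes. The median of the list was only 0.05 (log2), because the other 8 members lay between −0.39 and 0.37. MIR503HG, which carries MIR503 on the X chromosome, was at 4.27, 4.21 and 4.87 CPM in DMSO, 10.7, 6.83 and 10.3 CPM in ML-792, 6.02, 5.02 and 5.71 CPM in DNR and 17.2, 9.78 and 16.8 CPM in ML-792+DNR. No level with ML-792 lay below a level without it (log2 1.20 ± 0.11, adjusted p = 9.73e-05). MIR99AHG, host of MIR99A and MIRLET7C, was at 0.434 to 1.249 CPM in the 6 libraries without ML-792 and at 1.247 to 3.15 CPM in the 6 with it, so that the ranges overlapped at 1 end (log2 1.502 ± 0.17, adjusted p = 0.000525). C1orf132, host of the miR-29 pair on chromosome 1, had a log2 fold change of 1.05 ± 0.12 (adjusted p = 0.000544), and MIR181A1HG rose by 0.69 ± 0.14 and DLEU2, host of MIR15A and MIR16-1, by 0.50 ± 0.09 (adjusted p = 0.0182 and 0.0075). MIR646HG was the member that fell, by 0.30 on the log2 scale (adjusted p = 0.0164). Among the hosts that rose, miR-503-5p of MIR503HG has the seed AGCAGCG and miR-15a-5p and miR-16-5p of DLEU2 the seed AGCAGCA. Between 4 and 7 members of the list were called higher in each of the alternatives run on it, which were added after the data had been seen.

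MYC, the transcription factor that drives ribosome production and proliferation and is amplified in HL-60 cells, rose in both backgrounds from very different levels. It stood at 520, 725 and 584 CPM in DMSO and at 1045, 1507 and 1296 CPM in ML-792. In DNR it stood at 81.5, 146 and 117 CPM and in ML-792+DNR at 251, 584 and 344 CPM. Each ML-792 library was thus above its matched library, while the ML-792+DNR libraries overlapped those of DMSO. The log2 fold change was 1.399 ± 0.13 over both backgrounds (adjusted p = 9.73e-05), 1.07 ± 0.12 without and 1.74 ± 0.12 with DNR, and the difference between these was not called (0.67 ± 0.17, adjusted p = 0.311).

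The genes around MYC and its network did not move as a block. Of the 15 tested MYC network members, MYC and its antagonist MNT rose (13.3%) and the coactivator TRRAP fell (6.67%). Of all tested genes 2.32% rose and 2.67% fell. Of the 16 tested genes on chromosome 8 between TRIB1 and NDRG1 (126442600 to 134314265, GRCh37), the stretch that holds MYC and was chosen after its values were seen, 5 rose and 0 fell: TRIB1, LINC00861, MYC, TMEM71 and NDRG1. PVT1, a neighbour of MYC, had a log2 value of −0.04 ± 0.08. CASC11, whose annotated span overlaps that of MYC, had one of 0.58 ± 0.20 (adjusted p = 0.117). Its mean was 0.665 CPM against 600 CPM for MYC, and whether it took reads of MYC was not tested. Of 38 tested ribosome biogenesis genes, a class that MYC is known to drive, RRS1, NOP16 and RRP9 rose (7.89%, log2 0.26 to 0.30) and none fell. A positive value was found for 32 of them, against 6694 of 13696 tested genes. The 79 tested cytosolic ribosomal protein genes had 0 calls in edgeR, and 77 of them had a positive value with a median of 0.08.

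**Figure D1:**
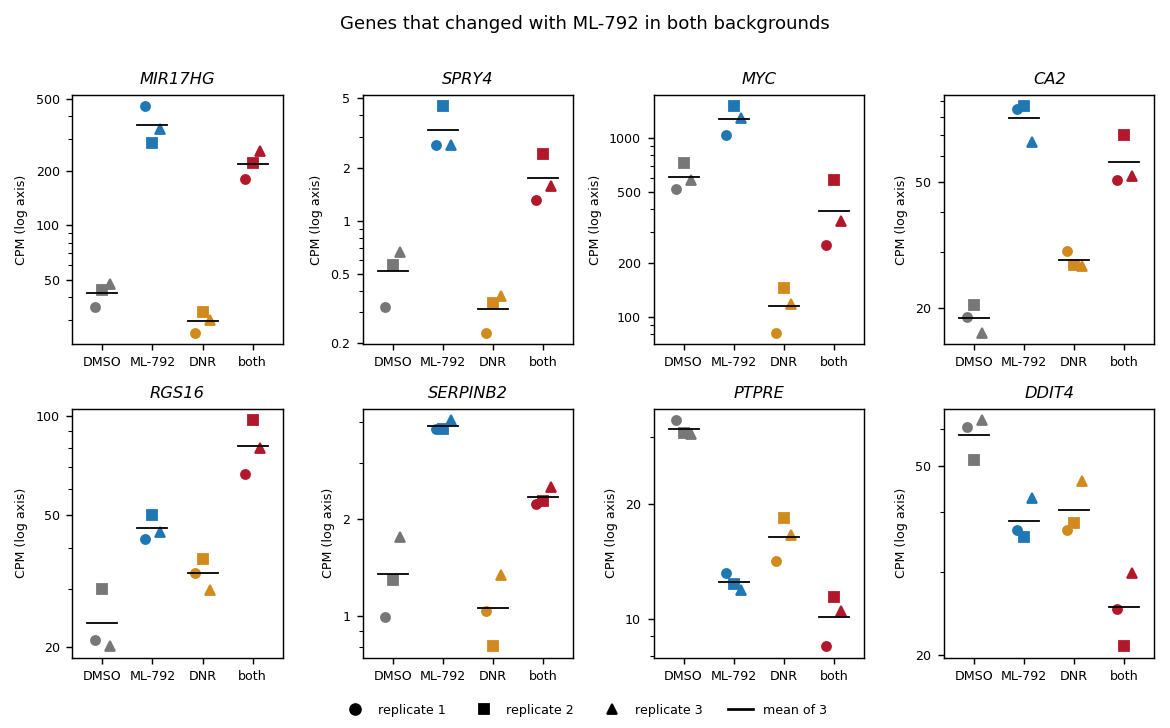
Level of 8 genes in the 12 libraries, in CPM on a log axis, by group (both, ML-792+DNR), with a symbol per replicate and a line at the mean of 3. The 6 MIR17HG levels with ML-792 (179 to 453 CPM) sit above the 6 without it (25.5 to 47.4 CPM), whereas MYC rises within each background from levels that differ with DNR, and PTPRE and DDIT4 fall within both.

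Other genes with large rises included enzymes, signalling inhibitors and transcription factors of early blood cells. CA2, carbonic anhydrase 2, stood at 18.7, 20.5 and 16.8 CPM in DMSO and 84.6, 86.2 and 66.7 CPM in ML-792, and at 30.3, 27.4 and 27.2 CPM in DNR and 50.5, 69.9 and 52.3 CPM in ML-792+DNR. Its log2 fold change was 1.55 ± 0.17 (adjusted p = 0.000422), and that of its neighbour CA3-AS1 was 1.28 ± 0.25 at 1.38 CPM or less. Whether reads were counted by strand is not known here, so overlapping or antisense genes may share reads. The rise of CA2 was 2.08 ± 0.10 without and 1.01 ± 0.10 with DNR, a difference that missed the threshold (adjusted p = 0.0637). NFE2, a transcription factor of megakaryocytes and erythroid cells, rose by 1.23 ± 0.17, and CLEC5A, a myeloid lectin receptor, by 1.05 ± 0.13. The rise of NFE2 passed without DNR (1.32 ± 0.19) and not with DNR (0.94 ± 0.35, edgeR adjusted p = 0.148). Its mean was then 0.457 CPM in DNR and 0.858 CPM in ML-792+DNR. NOG, an inhibitor of bone morphogenetic proteins, rose by 1.18 ± 0.14 and ID3, a target of that pathway, by 1.33 at 1.38 CPM or less. FJX1, a secreted protein, and IRGM, an autophagy GTPase, rose by 0.99 ± 0.12 and 0.98 ± 0.13. SERPINB2, a plasminogen activator inhibitor, stood at 0.806 to 1.76 CPM without ML-792 and at 2.22 to 4.06 CPM with it (log2 1.37 ± 0.14, adjusted p = 0.000232). GATA2, a stem and progenitor cell factor named after its values were seen, lay just under the 2-fold limit with a log2 of 0.98 ± 0.07 (adjusted p = 2.98e-05): it stood at 58.2, 69.9 and 59.7 CPM in DMSO, 100, 134 and 127 CPM in ML-792, 11.1, 16.2 and 12.3 CPM in DNR and 20.0, 36.9 and 24.2 CPM in ML-792+DNR. On the other side of that limit were C1orf132, CLEC5A and, among the fallers, PTPRE with −1.03.

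Of 31 tested myeloid maturation genes, 4 rose (12.9%) and 0 fell, against 2.32% and 2.67% of all tested genes. The risers were CLEC5A, the repressor GFI1 (log2 0.43 ± 0.05), RUNX1 (0.42 ± 0.04), a master regulator of blood formation, and SPI1 (0.29 ± 0.06), which encodes the factor PU.1. The median of the list was −0.03, and 18 members had a negative value. Without DNR 4 rose and 1 fell (0.759% and 0.365% of all tested genes), and with DNR 5 rose and 0 fell (1.65% and 2.29% of all). Of 15 tested primary granule genes, which encode the proteases and bactericidal proteins of promyelocytes, 5 rose (33.3%) and 0 fell, with a median of 0.14. The risers were ELANE, CFD, AZU1, CTSG and MS4A3. Of these, AZU1, ELANE and CFD lie close together on chromosome 19 (825097 to 867884, GRCh37), so that they may not be separate members. None of the 15 passed within either background alone. AZU1, azurocidin, stood at 25.8, 44.1 and 48.0 CPM in DMSO and 41.5, 56.4 and 112 CPM in ML-792, and at 40.2, 29.6 and 55.3 CPM in DNR and 60.2, 53.1 and 88.1 CPM in ML-792+DNR, so that each library with ML-792 was above its match but the groups overlapped. CFD reached 12.8 CPM in ML-792 replicate 3 against 2.73 and 3.10 CPM in the other 2 replicates. In the same library ELANE reached 4.03 CPM against 0.867 and 0.537 CPM, and AZU1 had its highest level. None of these 5 risers was called without the replicate term, none without replicate 3 and 1 without replicate 2.

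The MAP kinase feedback list holds inhibitors of ERK signalling and other genes, so that not every member damps it. Among its 26 tested genes 4 rose and 4 fell, 15.4% each against 2.32% and 2.67% of all tested genes. SPRY4, an inhibitor of receptor tyrosine kinase signalling, was scarce but rose the most: it stood at 0.324, 0.557 and 0.663 CPM in DMSO, 2.70, 4.50 and 2.71 CPM in ML-792, 0.231, 0.341 and 0.374 CPM in DNR and 1.31, 2.40 and 1.58 CPM in ML-792+DNR. Its groups with and without ML-792 did not overlap (log2 2.59 ± 0.16, adjusted p = 7.42e-06). RGS16, which shortens G protein signals, rose from 21.0, 30.0 and 20.1 CPM in DMSO to 42.5, 50.03 and 44.5 CPM in ML-792, and from 33.6, 37.0 and 29.8 CPM in DNR to 66.7, 97.0 and 79.9 CPM in ML-792+DNR (log2 1.12 ± 0.08, adjusted p = 1.76e-05). RGS2 and DUSP7 rose by 0.36 and 0.34. DUSP6, the phosphatase of ERK, fell by 0.34, SPRED2 by 0.36, the transcription factor ETV5 by 0.24 and IL1RAP by 0.23. The median of the list was −0.01. The fallers were 2 without the replicate term, 2, 1 and 0 without replicates 1, 2 and 3 and 1 to 4 with single libraries left out, and the risers 2 to 4 over the same settings.

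**Figure D2:**
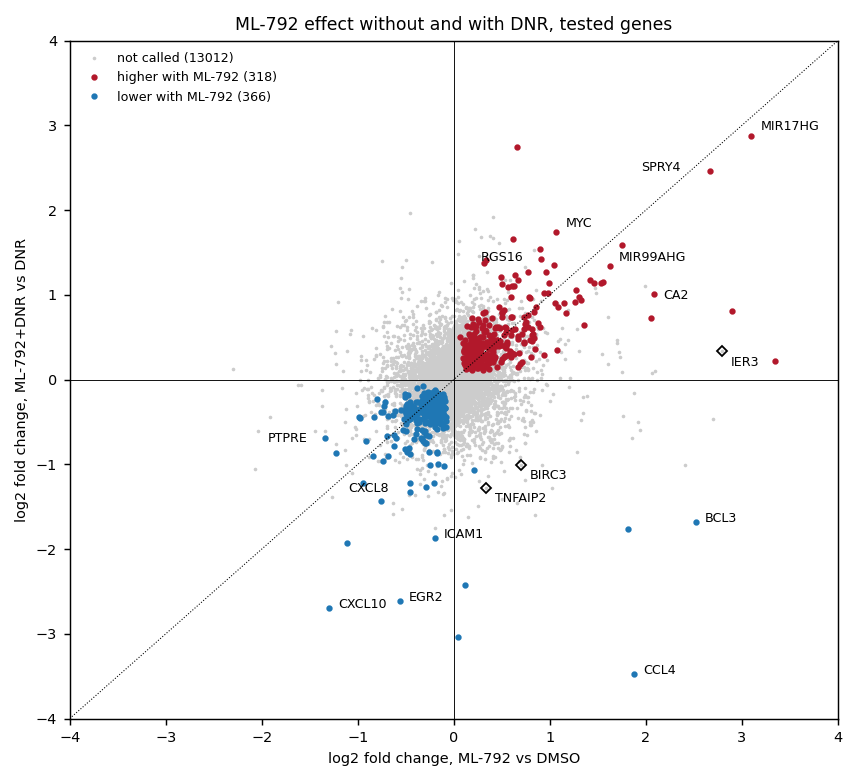
Log2 fold change with ML-792 without DNR (ML-792 against DMSO, horizontal) and with DNR (ML-792+DNR against DNR, vertical) for 13696 tested genes. Genes called across both backgrounds are in color, and TNFAIP2, BIRC3 and IER3 are diamonds. MIR17HG and SPRY4 lie near the dotted line of equal change, while ICAM1 lies below it and IER3 to its right, differences that did not pass (adjusted p = 0.354 and 0.0637). CXCL10 had 6 and 2 reads without DNR, and CCL4 and BCL3 had 0 to 4 reads per library there, so the horizontal positions of these genes cannot be read.

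Zinc finger genes of the ZNF class encode mostly repressors that recruit the silencing factor TRIM28, itself a SUMO target. Of 338 tested, 21 rose and 8 fell, 6.21% and 2.37% against 2.32% and 2.67% of all tested genes, and the median was −0.01. Within the backgrounds, 11 rose and 1 fell without DNR, while 8 rose and 11 fell with DNR. Of all tested genes 0.759% rose and 0.365% fell without DNR, and 1.65% and 2.29% with DNR. The balance of risers and fallers depended on the setting: DESeq2 gave 25 and 21, library size scaling 19 and 16, and the fit without ML-792 replicate 1 gave 20 and 30, with more fallers than risers. ZNF274, which brings a histone methyltransferase to the 3′ ends of other zinc finger genes, stood at 17.7, 14.5 and 18.2 CPM in DMSO, 29.7, 26.1 and 32.8 CPM in ML-792, 13.6, 15.01 and 17.1 CPM in DNR and 20.7, 23.4 and 24.9 CPM in ML-792+DNR. It rose by a log2 of 0.71 ± 0.07 (adjusted p = 0.000274) with no overlap between libraries with and without ML-792, and was named after its values were seen. Without the replicate term 11 members rose and 2 fell, without replicate 2 the numbers were 4 and 2 and without replicate 3 they were 1 and 1, alternatives that were added after the data had been seen.

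Of the 21 ZNF genes that rose, 10 lay in 2 short stretches. ZNF583, ZNF667, ZNF470, ZNF274 and ZNF544 lay on either side of the chromosome 19 stretch (56909335 to 58788861, GRCh37), among tested ZNF genes that did not rise. The others lay elsewhere, and ZNF503, ZNF777 and ZNF74 were each the only ZNF riser of their chromosome. On chromosome 19 13 of 151 tested ZNF genes rose, on chromosome 12 5 of 10 and on the other chromosomes with a GRCh37 position 3 of 175. The 5 on chromosome 12 were consecutive among tested genes at the end of the long arm: ZNF84, ZNF140, ZNF891, ZNF10 and ZNF268 (133613878 to 133791418, GRCh37) rose by log2 values of 0.40 to 0.76, each in 6 of 6 pairs. The annotated spans of ZNF140 and ZNF891 overlap, and the next genes inwards, ZNF26 and ZNF605, had values of 0.18 and 0.13 that did not pass. On chromosome 19, ZNF550, ZNF416, ZNF530, ZNF134 and ZNF551 rose among 10 neighbours within 0.251 Mb (57978031 to 58228669). In windows of 10 consecutive tested genes along all chromosomes, 5 risers was the highest count, and 9683 of 12211 windows held 0. The only other stretch with 5 was on chromosome 18, where SERPINB2 rose with its neighbours SERPINB10 (log2 0.46 ± 0.05) and SERPINB8 (0.29 ± 0.05), with ZCCHC2 and with KDSR. These windows overlap one another and were chosen for their counts, so that they are a description with no test.

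**Figure D3:**
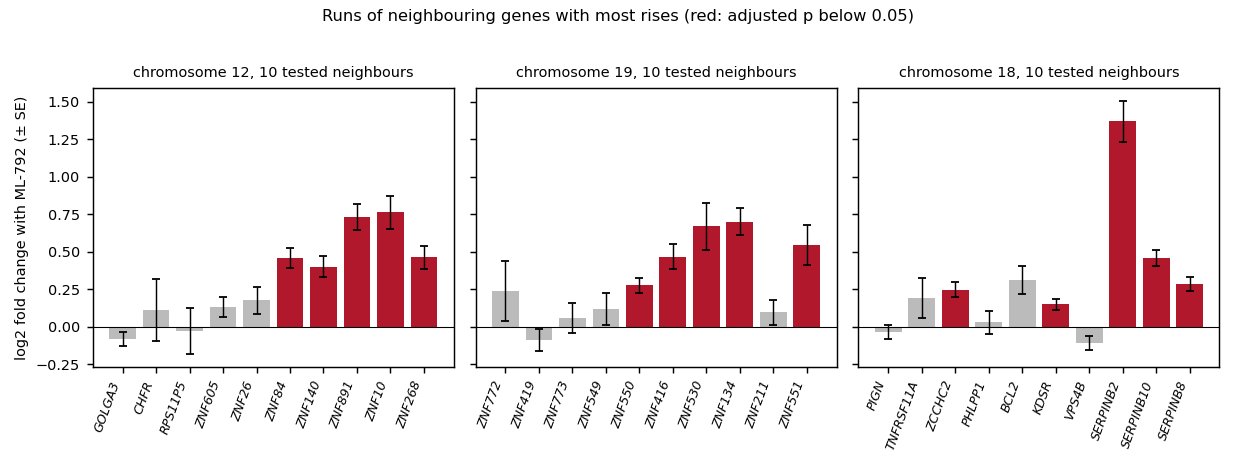
Log2 fold change with ML-792 (bars, ± SE) of 10 consecutive tested genes in each of 3 runs with 5 risers, in chromosome order. On chromosome 12 the 5 risers (0.40 to 0.76) stand next to one another, and on chromosome 18 SERPINB2 (1.37) stands far above its neighbours.

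Among the genes that fell, PTPRE and DDIT4 passed in each background and were called under each of 24 alternative settings. PTPRE, a receptor-type tyrosine phosphatase (chromosome 10, 129705367 to 129884119, GRCh37), stood at 33.2, 30.9 and 30.5 CPM in DMSO and 13.2, 12.3 and 11.9 CPM in ML-792, and at 14.2, 18.4 and 16.6 CPM in DNR and 8.47, 11.4 and 10.5 CPM in ML-792+DNR. The 6 libraries with ML-792 were all below the 6 without (log2 −1.03 ± 0.12, adjusted p = 0.000609). DDIT4, a stress-induced inhibitor of mTOR, stood at 60.6, 51.6 and 62.5 CPM in DMSO, 36.6, 35.4 and 42.8 CPM in ML-792, 36.7, 38.0 and 46.6 CPM in DNR and 25.02, 20.9 and 29.7 CPM in ML-792+DNR. It fell by 0.61 ± 0.08 without and 0.69 ± 0.08 with DNR, whereas ML-792 and DNR alone gave overlapping levels. The glucose transporter gene SLC2A3 fell by 0.65 ± 0.10, the cyclin gene CCNG2 by 0.70 ± 0.15, the interleukin 18 receptor subunit IL18RAP by 0.74 ± 0.14, the complement receptor C3AR1 by 0.50 ± 0.09 and the death ligand TNFSF10 by 0.59 ± 0.13 on the log2 scale, each in 6 of 6 pairs. In the SUMO pathway 1 of 30 tested genes passed, the protease SENP1, which fell by 0.24. This was 3.33% of the list, against 2.67% of all tested genes that fell.

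NF-kB is the transcription factor family of inflammation, and many of its targets were near 0 in cells without DNR. Of 34 NF-kB targets that could be tested, 13 fell and 0 rose (38.2% against 2.67% of all tested genes that fell), with a median of −0.46. Within the backgrounds, 0 fell and 1 (IER3) rose without DNR with a median of 0.00, and 21 fell and 0 rose with DNR with a median of −0.77. The background shares of genes that fell at any fold were 0.365% without and 2.29% with DNR. ICAM1, a leukocyte adhesion molecule, stood at 0.216, 0.155 and 0.331 CPM in DMSO and 0.184, 0.239 and 0.177 CPM in ML-792, against 6.51, 4.06 and 10.4 CPM in DNR and 1.99, 0.935 and 2.93 CPM in ML-792+DNR. Without DNR its libraries overlapped at a level near the limit of detection, and with DNR they did not overlap (log2 −1.86 ± 0.19). The chemokine gene CXCL10 had 6 reads in DMSO and 2 in ML-792 over the 3 libraries of a group, against 919 reads in DNR and 153 in ML-792+DNR, and fell by 2.69 ± 0.31 on the log2 scale with DNR (adjusted p = 0.00166). CCL4, another chemokine gene, had 0 reads in DMSO and 1 in ML-792 against 163 and 15, BCL3 had 1 and 7 against 319 and 102, and their fold changes without DNR were therefore not read. CCL4 has near-identical copies, between which its reads cannot be told apart with certainty. The neutrophil attractant CXCL8 stood at 13.9, 12.8 and 9.48 CPM in DMSO, 7.62, 9.64 and 9.94 CPM in ML-792, 98.7, 168 and 171 CPM in DNR and 35.4, 72.9 and 67.5 CPM in ML-792+DNR. REL, an NF-kB subunit, had 25.6, 24.97 and 25.5 CPM in DMSO, 23.3, 20.3 and 19.7 CPM in ML-792, 47.6, 53.7 and 54.3 CPM in DNR and 22.0, 32.1 and 32.2 CPM in ML-792+DNR (log2 −0.56 ± 0.12, adjusted p = 0.0194). Leaving out replicates changed the count of fallen targets, an alternative added after the data had been seen: it was 14 without replicate 1, 4 without replicate 2, 0 without replicate 3 and 4 without the replicate term, and between 5 and 19 with single libraries left out.

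**Figure D4:**
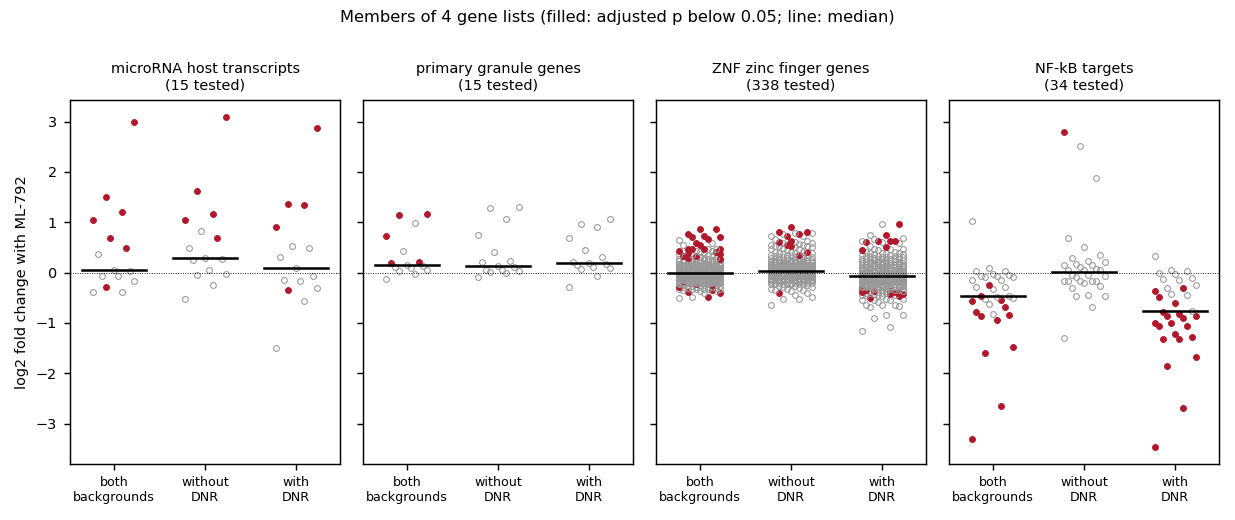
Log2 fold change with ML-792 of each tested member of 4 gene lists (points, filled where the adjusted p was below 0.05, line at the median), across both backgrounds, without DNR and with DNR. The median of NF-kB targets is −0.46, 0.00 and −0.77 in these 3 comparisons, and MIR17HG is the highest point of the microRNA hosts in each.

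The immediate early genes, induced within minutes from factors already present, had calls in both directions: of 43 tested, MYC, ID3, TRIB1 and CYR61 rose and EGR2, BTG2, ATF3 and MCL1 fell, 9.3% each against 2.32% and 2.67% of all tested genes. Risers numbered 2 to 5 over the alternatives, while fallers numbered 0 without replicate 3, 1 without replicate 2, 2 without the replicate term and up to 7 under others. EGR2 fell from 2.36, 3.94 and 1.65 CPM in DNR to 0.883, 0.312 and 0.138 CPM in ML-792+DNR, and BTG2, an antiproliferative target of p53, from 16.9, 19.6 and 18.5 to 8.60, 8.68 and 11.2 CPM. In cells without DNR both were under 1.1 CPM. Of the 8 genes that the study picked, MYC rose, CXCL10 and ICAM1 fell and 5 did not pass: FOSB (log2 −0.45, adjusted p = 0.121), EGR1 (−0.59, adjusted p = 0.119), NFKB2 (−0.62, adjusted p = 0.0707), CTCF (−0.16, adjusted p = 0.223) and IER3 (1.02, adjusted p = 0.0999). The study picked EGR1, ICAM1, MYC and NFKB2 partly by their response to ML-792 with DNR in these libraries, so that they are no independent evidence of a direction. It picked CXCL10, FOSB, NFKB2 and IER3 from expression arrays of cells given DNR, and CTCF from proteomics, all in HL-60 cells. NFKB2 had a log2 of 0.05 ± 0.15 without DNR and fell by 1.06 ± 0.12 with DNR, and EGR1 had −0.02 ± 0.21 and fell by 1.11 ± 0.20.

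The test of the difference between backgrounds called 1 gene of 13696 (0.0073%), and 1077 genes had an unadjusted p below 0.05. That gene was TNFAIP2, an NF-kB target of endothelial and myeloid cells named after its values were seen. It stood at 9.20, 8.63 and 12.5 CPM in DMSO, 12.4, 10.5 and 15.4 CPM in ML-792, 62.5, 62.3 and 93.7 CPM in DNR and 23.4, 22.5 and 47.5 CPM in ML-792+DNR. The value was 0.34 ± 0.12 without and −1.27 ± 0.11 with DNR, a difference of −1.61 ± 0.17 (adjusted p = 0.0113), and the additive fit gave −0.53 ± 0.25, which did not pass. With DESeq2 70 genes were called at any fold for this difference, MYC and BIRC3 among them. Of the 34 tested NF-kB targets, 22 had an unadjusted edgeR p below 0.05 for it, against 1077 of all 13696. Many of these targets were near 0 without DNR. The edgeR call of TNFAIP2 was lost without the replicate term, without replicate 2 and without any 1 of DMSO replicates 1 and 3, DNR replicate 3 and ML-792 replicate 2. For IER3, an early response gene, the levels were 0.497, 1.24 and 0.433 CPM in DMSO, 3.26, 6.41 and 4.94 CPM in ML-792, 43.6, 43.0 and 44.1 CPM in DNR and 53.1, 51.5 and 60.6 CPM in ML-792+DNR (difference −2.46 ± 0.35, adjusted p = 0.0637). Within each background, 22 genes rose and 3 fell by at least 2-fold without DNR (0.161% and 0.0219%) and 24 rose and 28 fell with DNR (0.175% and 0.204%, together 0.38%). Of the 25 genes higher across both backgrounds 13 passed in each background, and of the 14 lower ones 14 passed with DNR and 2, PTPRE and MPZL3, without.

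**Figure D5:**
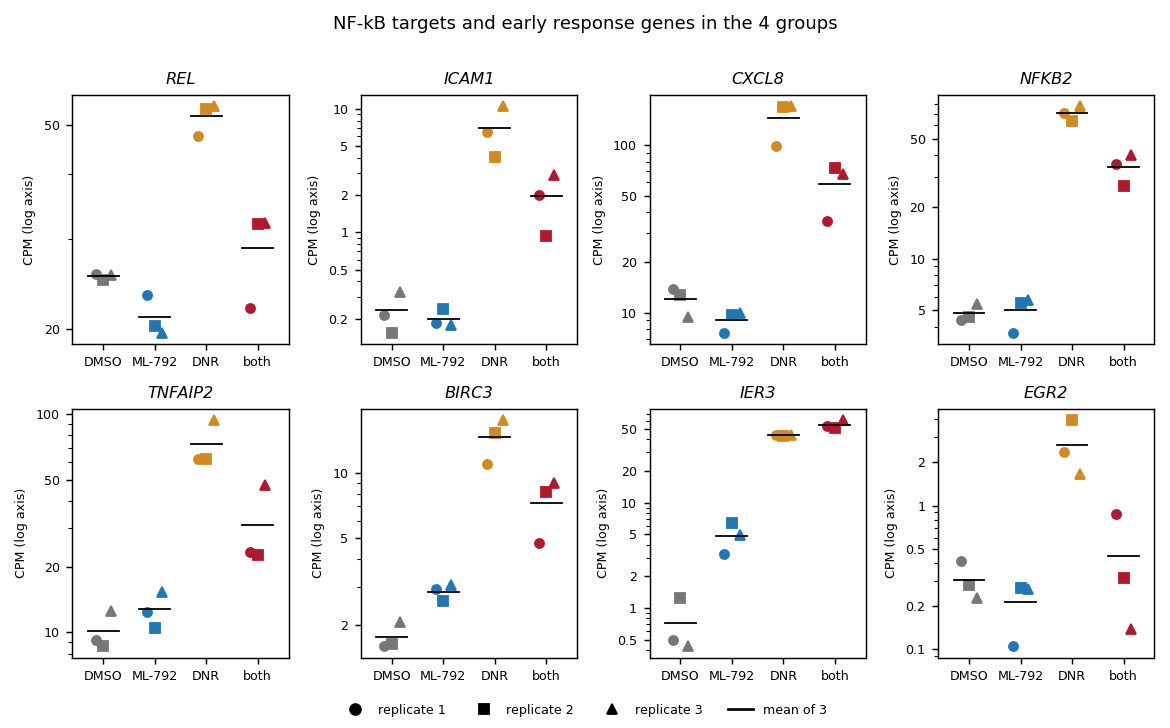
Level of 8 NF-kB targets and early response genes in the 12 libraries, in CPM on a log axis, with a symbol per replicate and a line at the mean of 3. TNFAIP2 and BIRC3 are slightly higher with ML-792 in cells without DNR and lower in cells with it, while the IER3 levels with ML-792 lie above those without it in both, with a change that passed without DNR and not with it.

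Calls in the stress, metabolic and elongation lists were few, beside 2.32% of all tested genes that rose and 2.67% that fell. Of 31 tested heat shock genes HSPA6, DNAJB9, HSPH1, HSPA5 and FKBP4 rose and none fell. HSPH1, a co-chaperone, rose by a log2 of 0.32 ± 0.04 in 6 of 6 pairs and the others by 0.23 to 0.95. Of 25 cholesterol synthesis genes HMGCS1, MSMO1 and CYP51A1 rose (0.24 to 0.41) and none fell. Of 24 transcription elongation factors CCNT2, SUPT6H and MEPCE fell (0.21 to 0.26 lower in log2) and none rose. Of 41 interferon-stimulated genes 1 rose (HERC5) and 1 fell (STAT2), and of 29 p53 targets 1 rose (AEN) and 2 fell (PMAIP1, BTG2). The 28 tested replication-dependent histone genes and the 20 aminoacyl-tRNA synthetase genes had no call. None of the heat shock, cholesterol and elongation genes named here was called without the replicate term or without replicate 3. The elongation list had 0 to 7 fallers over the alternatives.

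The other lists held few calls, to be read beside the 2.32% of all tested genes that rose and the 2.67% that fell. The cytokine and chemokine list had 25 tested members, of which 2 rose (IL12A, TNFSF13B) and 6 fell (CXCL10, CCL4, CXCL11, CXCL8, CXCL3, TNFSF10), with 7 falling in the comparison with DNR. Of 32 stress response genes of the integrated and unfolded protein pathways, CALR, DNAJB9, HSPA5 and XBP1 rose and ATF3, DDIT4 and SLC7A11 fell. Among 31 hypoxia and glycolysis genes ANKRD37 and NDRG1 rose and HIF1A, KDM3A and SLC2A3 fell. Of 32 chromatin silencers, CTCF and cohesin genes, HDAC2 and MORC2 rose and DNMT1 fell. BAG1 and SERPINB2 rose and CFLAR and MCL1 fell of 19 anti-apoptotic genes, and PMAIP1 and TNFSF10 fell of 27 pro-apoptotic genes. E2F1 and ORC1 fell of 48 DNA replication genes (4.17%) and BRCA2 and FANCA of 41 repair genes (4.88%). None of the replication and repair genes passed within either background alone. PTPRC and PTPRE fell of 22 leukocyte phosphatases and kinases (9.09%). CCNB1 rose and INCENP fell of 41 mitosis genes, PLD6 rose of 10 germline genes, and the lists of NRF2 targets (22 tested), chemoattractant receptors (16) and adhesion molecules (17) each had 1 fall, SLC7A11, C3AR1 and ICAM1. The 18 snoRNA host transcripts and the 15 mitochondrially encoded transcripts had no call.

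The genes that rose were shorter in genomic span than those that fell, as medians and with no test. The 304 risers with a GRCh37 annotation spanned a median of 22.5 kb, against 50.45 kb for 349 fallers and 30.4 kb for 12422 tested genes. The transcript with the most exons had a median of 6 exons among the risers, 12 among the fallers and 9 among all tested genes. In promoter windows from 250 bases before to 50 bases after the annotated starts (RefSeq, GRCh38.p14, both strands searched), the E-box CACGTG, which MYC and other factors bind, was present in 52 of 242 risers with a promoter in the table (21.5%), in 36 of 296 fallers (12.2%) and in 1239 of 9585 tested genes (12.9%). The kappaB motif (GGGA, any base, TTTCC) was in 11 of 30 NF-kB targets (36.7%), in 3 of the 12 that fell, and in 73 of 9585 genes (0.762%). The AP-1 motif TGANTCA was in 6.20%, 8.78% and 6.76% of risers, fallers and all. The motifs as spelled do not overlap one another, a match is a description of the letters, and a gene counted once however many promoters it had.

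Promoters of 2 risers with an E-box and of 1 fallen NF-kB target with a kappaB motif are printed to show where the letters lie, with the motifs in capitals. DLEU2 (chr13:50125492-50125791, minus strand) has its E-box 230 bases before the start and a TATAAA box 33 bases before it. FJX1 (chr11:35618210-35618509, plus strand) has its E-box 85 bases before the start. CXCL3 (chr4:74038640-74038939, minus strand), which encodes a neutrophil attractant, has its kappaB motif 79 bases before the start.
DLEU2: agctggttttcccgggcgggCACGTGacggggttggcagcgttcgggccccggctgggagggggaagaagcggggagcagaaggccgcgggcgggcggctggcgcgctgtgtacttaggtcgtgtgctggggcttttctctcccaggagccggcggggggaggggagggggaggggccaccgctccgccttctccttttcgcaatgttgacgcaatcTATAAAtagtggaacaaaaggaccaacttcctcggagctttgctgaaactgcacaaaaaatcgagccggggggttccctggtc
FJX1: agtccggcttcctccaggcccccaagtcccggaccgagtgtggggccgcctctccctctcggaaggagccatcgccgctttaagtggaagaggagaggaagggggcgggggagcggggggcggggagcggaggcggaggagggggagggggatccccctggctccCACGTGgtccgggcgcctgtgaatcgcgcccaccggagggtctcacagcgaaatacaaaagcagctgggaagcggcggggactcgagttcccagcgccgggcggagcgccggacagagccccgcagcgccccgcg
CXCL3: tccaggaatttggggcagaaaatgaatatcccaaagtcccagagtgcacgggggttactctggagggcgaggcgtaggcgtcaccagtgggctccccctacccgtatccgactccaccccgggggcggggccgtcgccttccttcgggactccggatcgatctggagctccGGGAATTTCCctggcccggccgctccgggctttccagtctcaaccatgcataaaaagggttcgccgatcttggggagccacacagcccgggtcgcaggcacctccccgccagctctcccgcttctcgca
DLEU2 rose by a log2 of 0.50 and FJX1 by 0.99, while CXCL3 fell by 0.85 ± 0.18 (adjusted p = 0.0194), from 29.1, 26.9 and 31.6 CPM in DNR to 16.1, 10.0 and 16.4 CPM in ML-792+DNR, at 0.432 to 0.588 CPM in the 6 libraries without DNR.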

How the data were processed

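The series holds 12 RNA libraries of HL-60 cells, 3 in each of 4 groups. Per the submitters' processing notes and the study's methods, the authors aligned the reads to hg19 (TopHat2 2.1.1, Bowtie2 2.3.5.1) and counted them per gene (HTSeq 0.11.1), and the deposited values are raw counts. The kit kept strand, but no source used here states whether counting used it. 5 counter lines that name no gene were left out; records with more than 1 alignment were 26.6% to 29.2% of each library, so near-identical genes are uncertain.

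Genes were filtered with edgeR 4.0.16 (filterByExpr, minimum count 10, minimum total 15), scaled by TMM and tested by quasi-likelihood with replicate number, DNR and ML-792 as terms, in R 4.3.3. A fit of the 4 groups with the same replicate term gave the effect without DNR, with DNR and their difference. The replicate term is in the fit because the comparison was defined so. Deviations from the group means of libraries with the same number correlated at 0.0722 to 0.587 and of others at −0.498 to 0.0913, across genes; the numbers mark independent experiments per the study's methods. CPM were computed with the TMM-scaled totals.

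The genes named were the 12 largest rises and 12 largest falls among called genes of at least 5 CPM in the highest group and of 1 direction in all 6 pairs, up to 3 called members of each of 38 lists, the strongest called differences between backgrounds, 8 genes of the study and SAE1 and UBA2. Further genes, among them GATA2, PVT1, CASC11, TNFAIP2, BIRC3, the members of the neighbour runs and most list members beyond 3, were named after their values were seen. Members and lists were chosen with earlier results of these data known. Alternatives changed the tool (DESeq2 1.42.0, limma 3.58.1), scaling, filter, fold, replicate term and libraries.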

Additional observations from a re-analysis of the deposited data

Results flagged for a closer look

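The ML-792 effect on TNFAIP2 differed between the backgrounds by a test of the difference itself: the log2 fold change with DNR minus that without was −1.61 ± 0.17 (edgeR, adjusted p = 0.0113). For BIRC3, an inhibitor of apoptosis and NF-kB target, every pair without DNR was higher with ML-792 and every pair with DNR lower. It stood at 1.60, 1.64 and 2.06 CPM in DMSO, 2.92, 2.57 and 3.06 CPM in ML-792, 10.98, 15.2 and 17.4 CPM in DNR and 4.74, 8.10 and 8.95 CPM in ML-792+DNR. Its difference was −1.70 ± 0.24 and missed the threshold of the test across all genes (adjusted p = 0.0637). Groups of 3 libraries were not checked for single outlying libraries.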

How the results depend on the processing

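None of the 93 named genes recomputed under the alternatives was called in one direction and reversed in another. Of the 78 that were called, 14 were called under all 24 alternatives, 64 under the 8 that changed tool, scaling, filter, gene set or contrast, 32 without the replicate block, and 61, 30 and 14 without replicates 1, 2 and 3. Genes named after their values were seen, such as GATA2, ZNF274, REL, CXCL8, SPI1 and TRIB1, were not among the 93. ZNF fallers outnumbered risers without ML-792 replicate 1 (30 against 20). Why the counts moved was not tested, except that a lower fold admits more genes. Requiring a fold of 1.5 gave 74 higher and 37 lower across both backgrounds, 55 and 19 without DNR and 89 and 66 with DNR. Without the replicate block the calls across both backgrounds were 6 lower (2-fold), and 106 higher and 93 lower at any fold. Without the block they were 10 higher and 1 lower without DNR, 13 and 14 with DNR, and 0 for the difference. DESeq2 gave 5 lower (2-fold) and 635 lower (any fold), 15 lower with DNR, and 2 and 8 for the difference. Library size scaling gave 583 lower at any fold and moved the median of all genes to −0.03, a mean of at least 1 CPM gave 6 lower and 17 lower with DNR, the mean of both backgrounds gave 7 lower, limma voom gave 18 lower with DNR, and no count filter gave 4 and 11 for the difference. Leaving out libraries gave 11 (without replicate 3) to 35 (without replicate 1) higher and 1 (without replicate 3) to 18 (without ML-792 replicate 1) lower, and at any fold 28 to 485 and 8 to 712 (without replicate 3 and without ML-792 replicate 1). The ranges were 4 to 23 and 0 to 4 without DNR, 4 to 29 and 1 to 29 with DNR, and 0 to 0 and 0 to 9 for the difference. The mitochondrial share differed by 0.140 to 0.378 percentage points when a replicate number was left out, an alternative added after the data had been seen. ICAM1, ELANE, CFD and AZU1 were not called without the block (adjusted p = 0.0599, 0.203, 0.143 and 0.142 in edgeR). Genes of a few reads per library, such as CCL4, are limited by depth.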
